A study of Mus musculus with 8 samples.

Results

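The insulin-like growth factor (IGF) family was followed here in lung mesenchyme of adult mice that had lost Hhip, an inhibitor of hedgehog signalling. The family was taken as 10 genes chosen by name: the ligands Igf1 and Igf2, the receptors Igf1r and Igf2r, and the binding proteins Igfbp2, Igfbp3, Igfbp4, Igfbp5, Igfbp6 and Igfbp7. All 10 symbols were found once each among the 31607 genes of the authors' deposited table, and all 10 were among the 17469 genes that received an adjusted p-value there. The rule itself uses names and no measured value.

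On GRCm38 with GENCODE M21 all 10 are protein-coding genes on 7 chromosomes. Igf1 (ENSMUSG00000020053) lies at chr10:87858265-87937042 and Igf2 (ENSMUSG00000048583) at chr7:142650766-142666816. Igf1r (ENSMUSG00000005533) lies at chr7:67952827-68233668 and Igf2r (ENSMUSG00000023830) at chr17:12682406-12769664. Igfbp2 (ENSMUSG00000039323) at chr1:72824503-72852474 and Igfbp5 (ENSMUSG00000026185) at chr1:72857932-72874884 are neighbours. Igfbp3 (ENSMUSG00000020427) lies at chr11:7206086-7213923 and Igfbp4 (ENSMUSG00000017493) at chr11:99041244-99054392. Igfbp6 (ENSMUSG00000023046) lies at chr15:102144362-102149511 and Igfbp7 (ENSMUSG00000036256) at chr5:77349240-77408041.

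IGF1 and IGF2 are secreted peptides that act through IGF1R, a receptor tyrosine kinase that drives growth and survival through PI3K, AKT and mTOR. IGF2R, the cation-independent mannose 6-phosphate receptor, has no kinase and clears IGF2 from the cell surface. Binding proteins hold the ligands outside the cell, prolong their life or keep them from the receptor, and metalloproteinases of the pappalysin family release the ligands by cutting the binding proteins. In the lung, mesenchymal cells are a main source of these secreted proteins.

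The HhipCKO mice carried the floxed alleles Hhipflox/flox with the tamoxifen-activated drivers UBCcreER and Myh11creER, and Control mice carried Hhipflox/flox without a driver. The labels leave unsaid whether both drivers were in the same mice. Myh11 is expressed in smooth muscle. All mice were adult and had received tamoxifen. Cells negative for CD45, CD31, Epcam and the dead-cell dye DAPI were sorted, although the extraction protocol speaks of cultured cells, and 4 libraries were made in each group. Nothing says how many mice entered a library, so p-values measure the spread between these libraries. In bulk RNA fewer cells of a type and less RNA per cell cannot be told apart.

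The deposited table holds 1 comparison, HhipCKO against Control, with 0 columns of library values, and the depth of single libraries is unknown. Levels given below for each group were therefore derived from the mean normalized count over the 8 libraries and the fold change. Mean normalized counts summed to 128669692. Hhip itself stood at a derived level of 10030 in HhipCKO and 61686 in Control libraries, 6.15-fold lower with a 95% interval between 3.99 and 9.49 (adjusted p = 9.55e-13, from the authors' deposited Wald test). Defining mesenchymal genes were abundant, with mean normalized counts between 29803 and 975871 for 8 markers. Leukocyte markers lay between 25.1 and 1199, and none was at 0. Alveolar epithelial markers lay between 655 and 103822, macrophage markers between 51.2 and 37908 and endothelial markers between 39.5 and 6275.

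The sequences upstream of the start sites are shown for Igfbp7, Igfbp5 and Igfbp4, since these 3 genes had the highest counts of the family and Igfbp7 alone passed the test of the groups. Each run covers the 250 bases before the RefSeq start on GRCm38.p6. Igfbp7 is read from the minus strand of chr5:77408046-77408295, Igfbp5 from the minus strand of chr1:72874866-72875115 and Igfbp4 from the plus strand of chr11:99040994-99041243. Capitals mark matches to any of 4 motifs, searched on both strands.
Igfbp7: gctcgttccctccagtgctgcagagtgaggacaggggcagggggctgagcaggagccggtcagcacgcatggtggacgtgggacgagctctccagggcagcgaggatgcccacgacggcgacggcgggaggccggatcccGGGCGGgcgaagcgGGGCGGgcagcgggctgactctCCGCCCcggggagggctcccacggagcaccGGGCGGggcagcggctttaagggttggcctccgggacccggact
Igfbp5: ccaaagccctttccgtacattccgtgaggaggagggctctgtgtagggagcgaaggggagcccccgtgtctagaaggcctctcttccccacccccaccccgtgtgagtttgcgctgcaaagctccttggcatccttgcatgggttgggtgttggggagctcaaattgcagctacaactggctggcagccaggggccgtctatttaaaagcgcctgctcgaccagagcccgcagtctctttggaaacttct
Igfbp4: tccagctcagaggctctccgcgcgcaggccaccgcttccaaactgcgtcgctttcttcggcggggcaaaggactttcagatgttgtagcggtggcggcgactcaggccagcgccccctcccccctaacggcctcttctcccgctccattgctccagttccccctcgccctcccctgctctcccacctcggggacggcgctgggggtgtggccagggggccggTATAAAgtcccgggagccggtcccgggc

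The motifs were the GLI consensus GACCACCCA, bound by the transcription factors of the hedgehog pathway, the TATA box TATAAA, the SP1 box GGGCGG and the FOXO site GTAAACA. RefSeq matched all 10 genes, with 14 upstream windows in all because Igf2 and Igfbp2 have several starts. None of these windows held the GLI letters, which occurred in 0.225% of 32851 windows of the genome, and none held the FOXO letters, which occurred in 3.17%. The letters TATAAA were found upstream of Igfbp4 and, as the reverse complement TTTATA, upstream of Igfbp6, against 12.4% of all windows. Only exact letters were searched, without regard to distance from the start. SP1 boxes lay upstream of Igf1r, Igf2, Igf2r, Igfbp2 and Igfbp7, in 6 of the 14 windows, and in 32.7% of all windows. Igfbp7 had 4 SP1 boxes, the most in the family. No matches overlapped one another. GC content ran between 47.6% upstream of a start of Igf2 and 77.6% upstream of Igf1r, and the median over all windows was 52.4%.

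Binding proteins dominated the family by level. Igfbp5 had the highest mean normalized count, 244042, followed by Igfbp7 with 216444 and Igfbp4 with 170825 in the authors' deposited table. They ranked 48, 53 and 76 among all tested genes. The same table gave Igfbp6 a mean normalized count of 102641 and Igfbp3 one of 58402. The 6 binding proteins together took 0.619% of all normalized counts, the ligands 0.0212% and the receptors 0.0363%.

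Long messages yield more reads, so levels of different genes were compared per kb of the longest annotated transcript. On that scale Igfbp7 led with a level of 180370 ± 24814 normalized counts per kb, where the error is the SD between libraries implied by the authors' standard error. Igfbp6 followed at 92303 ± 16776, clear of Igfbp7 and of Igfbp4 at 44590 ± 9770. Igfbp4 and Igfbp5, at 40633 ± 10785, did not differ beyond their spread, nor did Igfbp5 and Igfbp3, at 24123 ± 6259. A gap of 7.59-fold separated Igfbp3 from the next gene, Igf2r, at 3178 ± 333 normalized counts per kb. Igf2r, Igf1 at 3032 ± 571 and Igfbp2 at 2714 ± 754 overlapped in spread, as did Igf1r at 1621 ± 131 and Igf2 at 1261 ± 373. With the mean length of protein-coding transcripts in place of the longest, Igfbp4 stood second at 101240 and Igf1 reached 10888 normalized counts per kb. Igf1 was then the gene next to Igfbp3, at 28282, and the gap between them was 2.60-fold. The mean lengths were 1687 bases for Igfbp4 and 1964 bases for Igf1, against 3831 and 7052 bases for their longest transcripts.

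**Figure D1:**
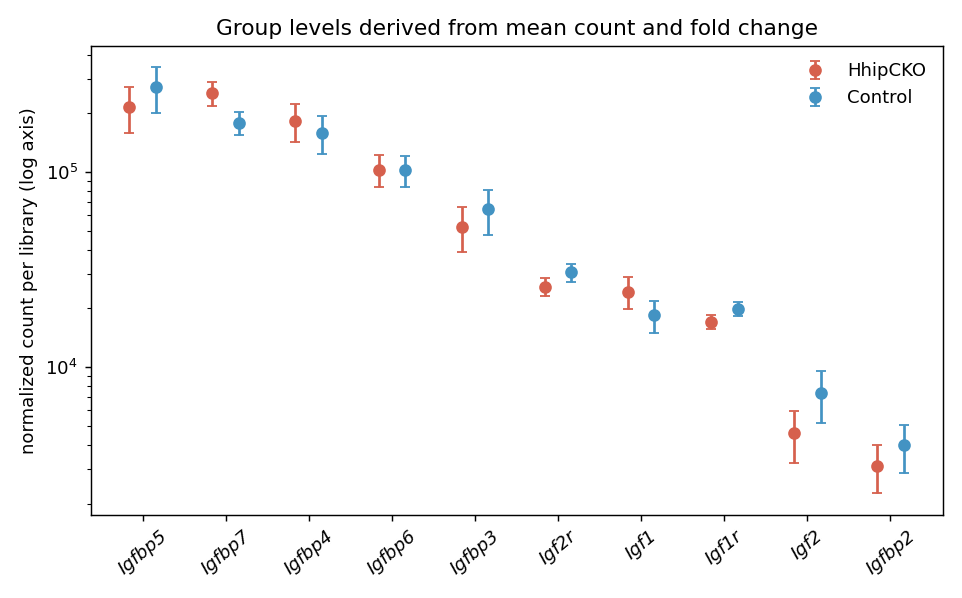
Normalized counts per library on a log axis for the 10 genes, in order of mean count, with HhipCKO in red left of Control in blue. Points are group levels derived from the deposited mean count and fold change, and bars are the SD between 4 libraries implied by the deposited standard error. Igfbp7 is the gene whose bars stand apart, at 254151 in HhipCKO and 178738 in Control libraries, while 5 binding proteins lie above every ligand and receptor in both groups.

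Most of the family showed no detectable change at this precision. Of the 10 genes, 1 rose, none fell and 9 did not pass in the authors' deposited Wald test (DESeq) at an adjusted p of 0.05. Over all tested genes 6.98% passed, 3.06% upwards and 3.92% downwards, and the family's count is close to that background. At an unadjusted p below 0.05 there were 5 of the 10, Igf1, Igf2, Igf1r, Igf2r and Igfbp7, against 21.8% of all tested genes. Log2 fold changes were positive for 4 and negative for 6 genes, with a median of -0.23 against 0.019 over all tested genes.

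**Figure D2:**
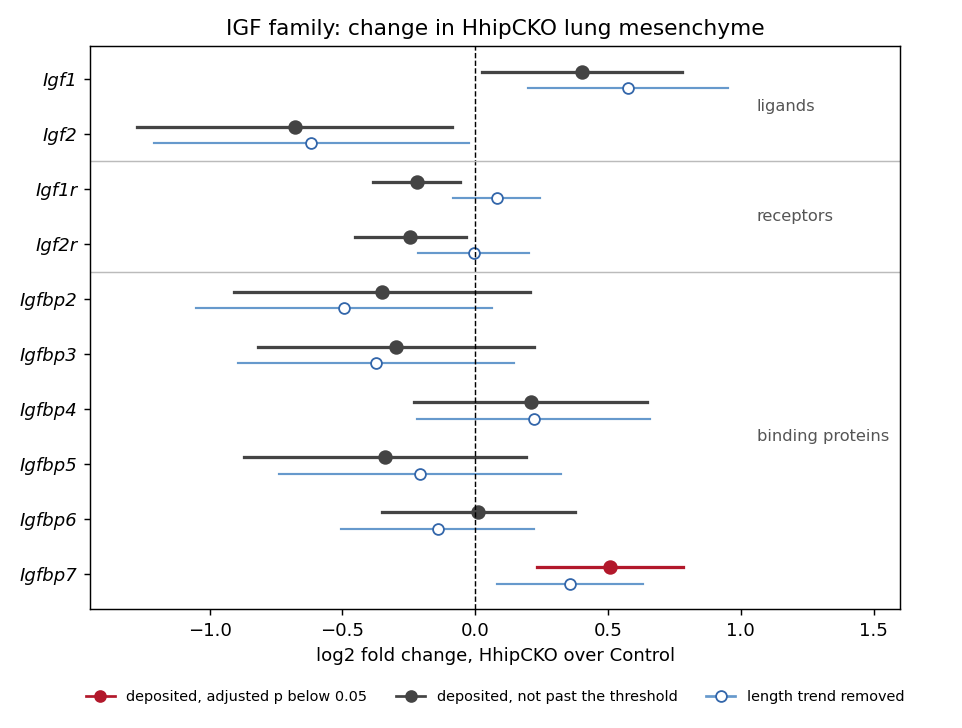
Log2 fold change of HhipCKO over Control for each gene, by role, with 95% intervals. Filled points are deposited values, red where the adjusted p was below 0.05, and open points have the transcript length trend removed with the same standard error. Igfbp7 at 0.51 is the red point, and with the trend removed Igf1r moves to 0.080 and Igf2r to -0.0061.

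The ligands lay on opposite sides of 0, and neither passed. Igf1, the growth hormone responsive ligand of adult tissues, had a derived level of 24345 normalized counts in HhipCKO and 18419 in Control libraries. The authors' deposited table gave it a log2 fold change of 0.40 ± 0.19 (SE), with an adjusted p of 0.193, and the 95% interval ran between 0.026 and 0.78. Igf2, an imprinted ligand read from the paternal allele and known chiefly from fetal growth, had 4579 in HhipCKO and 7334 in Control libraries. Its log2 fold change from the authors' deposited table was -0.68 ± 0.30 (SE, adjusted p = 0.155), with an interval between -1.27 and -0.087. This was the largest value of the family in size and also the least precise. Igf2 made up 15.8% of ligand counts in HhipCKO and 28.5% in Control libraries, a share without a test of its own. Per kb of the longest transcript the share was 21.9% in HhipCKO and 37.3% in Control libraries.

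The spread between libraries set how small a change could pass. An adjusted p of 0.05 corresponded to an unadjusted p of 0.00348, or a fold change 2.92 times its standard error. Igf2 would have needed a log2 change of 0.88 to pass and Igf1 one of 0.56. The standard error of Igf2 exceeded that of 93.0% of the 200 tested genes closest to it in mean count, and its implied coefficient of variation between libraries was 29.6%. For Igf1 these values were 82.0% and 18.8%.

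Neither receptor passed, and both deposited values were close to the length trend described further on. Igf1r, the signalling receptor, had a derived level of 17080 normalized counts in HhipCKO and 19904 in Control libraries. Its log2 fold change, from the authors' deposited table, was -0.22 ± 0.083 (SE) at an adjusted p of 0.0780, just short of the 0.24 in size that it needed. Its implied variation between libraries, 8.07%, was the smallest of the family. Igf2r, the clearance receptor, stood at 25860 in HhipCKO and 30619 in Control libraries. The authors' deposited table listed it at -0.24 ± 0.11 (SE, adjusted p = 0.148). The intervals reached down to -0.38 for Igf1r and -0.45 for Igf2r, so a fall by more than 1.37-fold lies outside both. With the length trend removed the values were 0.080 for Igf1r and -0.0061 for Igf2r.

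Among the binding proteins Igfbp7 rose. Igfbp7, also called angiomodulin, binds IGFs weakly and is secreted into the matrix around vessels and mesenchymal cells. Its derived level was 254151 normalized counts in HhipCKO and 178738 in Control libraries, 1.42-fold higher with a 95% interval between 1.18 and 1.72. The deposited log2 fold change was 0.51 ± 0.14 (SE, from the authors' deposited table, at adjusted p = 0.00978), rank 531 among all tested genes by p. It accounted for 51.4% of binding protein counts per kb of the longest transcript in HhipCKO and 41.7% in Control libraries. These shares depend on that choice of length, since Igfbp4 reached 101240 per kb with the mean length of protein-coding transcripts. With the trend of fold change on transcript length removed the value was 0.36 and the adjusted p 0.146, when 3.09% of genes passed. With the Wald statistics divided by their robust SD of 1.53 the adjusted p was 0.602.

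Igfbp7 is also made by vessel cells. The 8 endothelial markers summed to 13399 normalized counts in HhipCKO and 14736 in Control libraries, and 0 of 7 tested passed in the authors' deposited Wald test (DESeq; 0 at an unadjusted p below 0.05). The 8 pericyte markers summed to 91504 in HhipCKO and 120127 in Control libraries, with 1 risen and 2 fallen, or 37.5% against 6.98% of all tested genes. Of these 8, 7 were negative, with a median log2 fold change of -0.47 against 0.019 over all tested genes. Smooth muscle markers summed to 544434 in HhipCKO and 518311 in Control libraries, with 1 of 8 fallen, or 12.5%. The part of these cells in the value of Igfbp7 was not tested.

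The other binding proteins did not pass, and their intervals were wide. Igfbp5, a matrix-bound member, had a derived level of 215548 normalized counts in HhipCKO and 272535 in Control libraries. Its log2 fold change was -0.34 ± 0.27 (SE, from the authors' deposited table) at adjusted p = 0.505. Igfbp2, its neighbour on chromosome 1 with a gap of 5.457 kb, stood at 3119 in HhipCKO and 3975 in Control libraries, with nearly the same log2 fold change, -0.35 ± 0.28 (SE, from the authors' deposited table, at adjusted p = 0.513).

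Igfbp3, the main carrier of IGFs in blood, had 52409 normalized counts in HhipCKO and 64396 in Control libraries. The authors' deposited table gave a log2 fold change of -0.30 ± 0.26 (SE) at an adjusted p of 0.560. Igfbp4, an inhibitory member, had 183186 in HhipCKO and 158464 in Control libraries, a log2 fold change of 0.21 ± 0.22 (SE, from the authors' deposited table, at adjusted p = 0.645). Igfbp6, which prefers IGF2 as ligand, was the closest to level, with 103084 in HhipCKO and 102197 in Control libraries. Its log2 fold change was 0.012 ± 0.19 (SE, from the authors' deposited table, at adjusted p = 0.980), and the 95% interval of the fold ran between 0.784 and 1.30. The sign of Igfbp6 turned with median-centred fold changes and with the length or GC trend removed. Summed over the 6 binding proteins, the derived level was 811498 in HhipCKO and 780305 in Control libraries, a ratio of 1.04. That sum gives long transcripts more weight. Per kb of the longest transcript the sums were 412234 in HhipCKO and 357233 in Control libraries, and neither comparison was tested.

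Both pappalysins, Pappa and Pappa2, fell. Pappa, which cleaves IGFBP4 and IGFBP5, had a derived level of 2018 normalized counts in HhipCKO and 3320 in Control libraries, 1.65-fold lower with a 95% interval between 1.40 and 1.94. The log2 fold change of Pappa was -0.72 ± 0.12 (SE, from the authors' deposited table, at adjusted p = 1.51e-06). Pappa2, which cleaves IGFBP3 and IGFBP5, had 2244 in HhipCKO and 5809 in Control libraries, 2.59-fold lower with an interval between 1.73 and 3.87. The authors' deposited table listed Pappa2 at -1.37 ± 0.30 (SE, adjusted p = 0.000460). Both also passed once the length trend was removed and p recomputed from the authors' standard errors, Pappa at -0.43 (adjusted p = 0.0209) and Pappa2 at -1.12 (adjusted p = 0.0115). With the authors' Wald statistics divided by their robust SD, neither passed (adjusted p = 0.0664 for Pappa and 0.320 for Pappa2).

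These were 2 of 8 genes in a list for binding protein cleavage, of which none rose and 6 did not pass, against 6.98% of all tested genes past the threshold and 3.92% fallen. The median log2 fold change of the 8 was -0.48, against 0.019 over all tested genes. Htra1 and Ctsd, further proteases of the list, had log2 fold changes of 0.064 and 0.16 in the authors' deposited table. Its remaining proteases, Htra3 and Adam12, lay lower, at -0.41 and -0.82 in the same table. Neither pair passed. Stc1 and Stc2, the secreted stanniocalcins that inhibit pappalysins, had log2 fold changes of -0.072 ± 0.24 and -0.55 ± 0.34 (SE, from the authors' deposited table, at adjusted p = 0.904 and 0.359). Chondrocyte markers fell in the same libraries, 5 of 7 tested, or 71.4% against 6.98% of all tested genes past the threshold. They summed to 7016 normalized counts in HhipCKO and 27055 in Control libraries. Their part in the values of Pappa, Pappa2 and Igf2 was not tested.

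**Figure D3:**
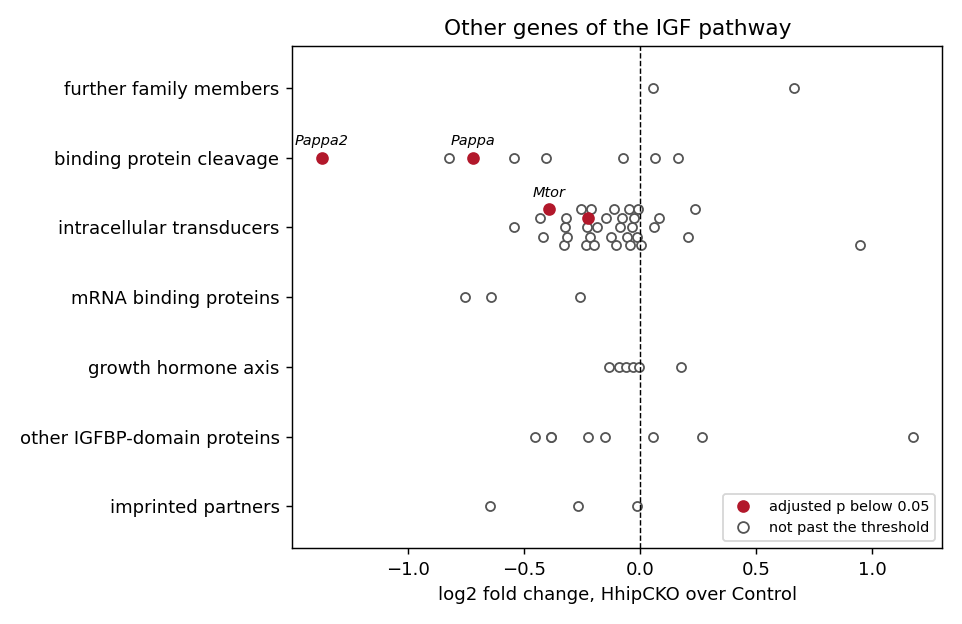
Log2 fold change of HhipCKO over Control for the tested genes of 7 further pathway lists, red where the adjusted p was below 0.05. The 4 red points all lie left of 0, with Pappa2 at -1.37 and Pappa at -0.72 farthest out and Mtor at -0.39 among the transducers.

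Inside the cell, 2 of 35 tested transducers fell and none rose, a share of 5.71% against 6.98% of all tested genes, which is close to the background. At an unadjusted p below 0.05 (Wald test, DESeq) there were 13 of the 35, against 21.8% of all tested genes. Log2 fold changes were negative for 29 transducers and positive for 6. Mtor, the kinase of growth control, had a log2 fold change of -0.39 ± 0.067 (SE, from the authors' deposited table, at adjusted p = 2.72e-06), a derived 6950 normalized counts in HhipCKO and 9111 in Control libraries. After removal of the length trend, at the authors' standard error, Mtor stood at -0.16 and missed the threshold (adjusted p = 0.173), and none of the 35 passed. By the same step the median of the transducers became -0.024, against -0.13 as deposited. With the authors' Wald statistics divided by their robust SD, Mtor had an adjusted p of 0.0719.

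The remaining lists held no gene past the threshold in the authors' deposited Wald test (DESeq). Over all tested genes 21.8% had an unadjusted p below 0.05 in that test. Among the IGF2 mRNA binding proteins, which control fetal growth transcripts, Igf2bp2 stood at -0.76 ± 0.28 and Igf2bp3 at -0.64 ± 0.39 (SE, from the authors' deposited table, at adjusted p = 0.0694 and 0.344), and 1 of 3 had an unadjusted p below 0.05. In the growth hormone axis, which induces Igf1, the receptor Ghr had 0.18 ± 0.088 and the kinase Jak2 -0.13 ± 0.13 (SE, from the authors' deposited table, at adjusted p = 0.216 and 0.626), with 1 of 6 at an unadjusted p below 0.05. Of 8 other proteins with an IGFBP domain, Crim1 had -0.39 ± 0.16 and the endothelial proteoglycan Esm1 1.18 ± 0.49 (SE, from the authors' deposited table, at adjusted p = 0.111 and 0.120), and 3 of 8 had an unadjusted p below 0.05. The insulin receptor Insr had 0.057 ± 0.48 and its relative Insrr 0.66 ± 0.40 (SE, from the authors' deposited table, at adjusted p = 0.966 and 0.337), with 0 of 2 at an unadjusted p below 0.05. Over all 7 lists, 4 of 65 tested genes passed, or 6.15%, which is close to the 6.98% of all tested genes. At an unadjusted p below 0.05 there were 21 of the 65.

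Fold changes across the table depended on transcript length, and the family spans that range. The median log2 fold change was 0.20 in the shortest 10% of tested genes and -0.22 in the longest 10%. At 11409 bases Igf1r has the longest transcript of the family, and the trend at that length was -0.30, below its own value. Igf2r, at 8887 bases, sat on the trend of -0.24. Igf1, at 7052 bases, went against the trend of -0.17. With the trend removed, and at the authors' standard errors, Igf1 stood at 0.58 with an adjusted p of 0.0704, Igf1r turned sign to 0.080 (adjusted p = 0.721) and Igf2r stood at -0.0061 (adjusted p = 0.986). The cause of the length trend was not tested.

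**Figure D4:**
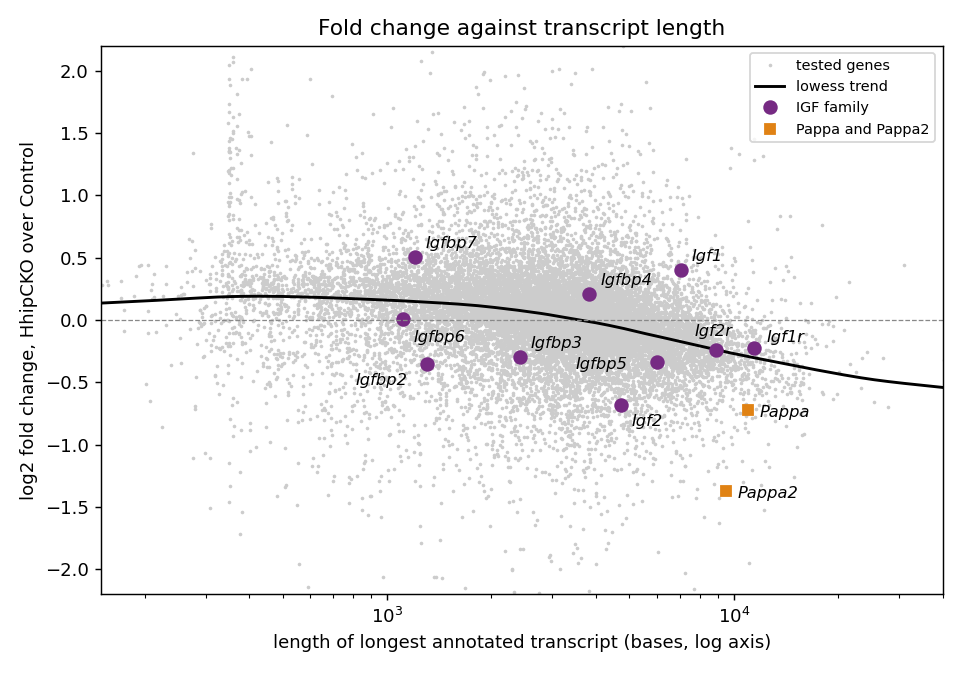
Log2 fold change of HhipCKO over Control against the length of the longest annotated transcript on a log axis, for tested genes in grey, the family in purple and Pappa and Pappa2 in orange, with the lowess trend in black; 139 of 17439 genes lie outside the axes. Igf1r and Igf2r sit near the line, Igfbp7 and Igf1 lie above it, and Pappa and Pappa2 lie below it.

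Neighbouring genes were set beside the family. On GRCm38 with GENCODE M21, 57 tested genes lie within 200 kb of a member, none rose and 1 fell, or 1.75% against 6.98% of all tested genes, a difference without a test. Their median log2 fold change was 0.011. That gene was Adcy1, an adenylyl cyclase beside Igfbp3, at -1.52 ± 0.41 (SE, from the authors' deposited table, at adjusted p = 0.00760). At the authors' standard error Adcy1 missed the threshold once the length trend was removed (adjusted p = 0.0781). Igfbp7, on the minus strand, shares 85 bases at its end with Polr2b on the other strand. Polr2b, an RNA polymerase subunit with a mean count 4.19% of that of Igfbp7, had a log2 fold change of -0.011 ± 0.058 (SE, from the authors' deposited table, at adjusted p = 0.945).

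The imprinted loci of the ligand and of its clearance receptor have noncoding partners. H19, expressed from the maternal allele beside Igf2 on chromosome 7, had a log2 fold change of -0.65 ± 0.46 (SE, from the authors' deposited table, at adjusted p = 0.438), close to the -0.68 of Igf2. Airn, an antisense transcript overlapping Igf2r by 28354 bases on chromosome 17, had -0.27 ± 0.17 (SE, from the authors' deposited table, at adjusted p = 0.384), beside -0.24 for Igf2r. With the length trend removed the values lay apart, at -0.41 for Airn and -0.0061 for Igf2r. Neither partner passed. Strand use in counting is not given in the sources used here, so reads of Igf2r and Airn, and of Igf2 and its antisense Igf2os, cannot be told apart where they overlap. The mean count of Airn was 4.31% of that of Igf2r, and that of Igf2os 1.01% of that of Igf2.

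Markers of other cells were summed in the same libraries. Leukocyte markers summed to 3855 normalized counts in HhipCKO and 3127 in Control libraries, and 1 of 7 tested, the monocyte receptor Ccr2, rose. That is 14.3%, against 6.98% of all tested genes past the threshold and 3.06% risen. Ccr2 passed narrowly (adjusted p = 0.0499, from the authors' deposited Wald test). Its mean normalized count was 53.0, where the lowest with an adjusted p was 42.1. With the length trend removed Ccr2 missed the threshold. Of the 7 tested leukocyte markers 6 were positive. The 1 negative, Cd3e at a log2 fold change of -0.75, had the highest mean count of the list. Macrophages are a known source of Igf1. Their markers summed to 61833 in HhipCKO and 25266 in Control libraries, and 0 of 7 tested passed (Wald test, DESeq; 0 at an unadjusted p below 0.05). Lyz2, which alveolar type 2 cells also express, made up most of that sum, and the other 7 markers summed to 5489 in HhipCKO and 5794 in Control libraries. The lower sum in HhipCKO came from Csf1r, with 2445 in HhipCKO and 3689 in Control libraries (log2 fold change -0.59). Of the 7 tested macrophage markers 6 were positive and 1 negative, with a median log2 fold change of 0.40 against 0.019 over all tested genes. Alveolar epithelial markers summed to 284504 in HhipCKO and 149410 in Control libraries, with 0 of 8 past the threshold and 0 at an unadjusted p below 0.05. The type 2 genes Sftpc, Sftpb, Sftpa1 and Lamp3 had log2 fold changes between 1.17 and 1.55, while Ager, Hopx and Cldn18 lay between -0.44 and -0.19, and none of these 7 passed. These splits were made after the values were seen. The part of these cells in the values of the family was not tested. The 8 mesenchymal markers summed to 3439482 in HhipCKO and 3538907 in Control libraries, and none passed (0 at an unadjusted p below 0.05).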

How the data were processed

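Bulk RNA sequencing compared 4 HhipCKO with 4 Control libraries. The submitters' processing notes name FastQC, STAR and DESeq, without versions, and the builds GRCm38 and mm10. Annotation, counter, strand setting and normalization method are not given in the sources used here. Per the file headers, the authors deposited for each gene the mean normalized count, a coverage signal over all libraries. They deposited a log2 fold change and its standard error, per the file headers, beside the Wald score. Each gene's p-value, raw and adjusted, was also computed by the authors. There were 0 columns of library values, so tests on library values were not run and the authors' own test was used at an adjusted p of 0.05.

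The members and gene lists were chosen with earlier results of these data known. The rule for named genes takes the 10 members, Hhip, neighbours within 200 kb past the threshold and, from each of 7 pathway lists, genes past the threshold or else the 2 of lowest adjusted p. It also takes 2 genes from each of 13 marker lists, which are given here as sums and counts instead. Of the pathway genes past the threshold, 1 is counted but not reported here by name. Stc1, Stc2, Htra1, Htra3, Adam12, Ctsd, Polr2b, Igf2os, Igf1os, Igfals, Igfbpl1 and Ins2 lie outside the rule. They were added after their values were seen, as were the marker genes given by name.

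Group levels split the mean count by the fold change for groups of equal size. The implied SD between libraries solves a negative binomial variance for the deposited standard error. Intervals at 95% assume a normal log2 fold change. Identifiers matched GENCODE M21 for 31509 genes. Length and GC trends were lowess curves with a span of 0.3 (Python 3.11.15, statsmodels 0.14.6), with p recomputed at the same standard error and Benjamini-Hochberg adjustment over the genes tested. These steps were tested on simulated data. The simulated noise followed the authors' standard errors, whereas the deposited Wald statistics had a robust SD of 1.53. The simulation therefore cannot show how the recomputed p-values behave at that wider spread. Upstream sequences came from RefSeq on GRCm38.p6.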

Additional observations from a re-analysis of the deposited data

How the results depend on the processing

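Of 7 alternatives, 4 left the counts within 1.5 times: no filter on low counts, a mean count of at least 500, median-centred fold changes and the GC trend removed. With the length trend removed, 0 family members passed (3 at an unadjusted p below 0.05, Wald test on the deposited DESeq values). By the same step 539 genes in all passed (2640 unadjusted), with 2 pathway genes (13 unadjusted) and 10 marker genes (18 unadjusted). With Wald statistics over their robust SD the numbers were 0 members (1 unadjusted) and 18 genes in all (1108 unadjusted). Of pathway genes 0 then passed (4 unadjusted), and of marker genes 0 (12 unadjusted). Against a minimum of 1.5-fold the numbers were 0 members (0 unadjusted) and 8 genes in all (136 unadjusted). Pathway genes were then 0 (1 unadjusted) and marker genes 0 (8 unadjusted). The deposited counts were 1 of 10 members, 1219 of 17469 genes (6.98%), 4 of 65 pathway genes (6.15%) and 13 of 91 marker genes (14.3%). Igf1r reversed to 0.080 with the length trend removed. Igfbp6, at 0.012 as deposited, reversed to -0.0064 with median-centred fold changes, -0.14 with the length trend removed and -0.019 with the GC trend removed. The cause was not tested. Over the alternatives the log2 fold change of Igfbp7 ran between 0.36 and 0.51 and that of Igf1 between 0.37 and 0.58. No paired analysis was possible because the table carries no library values, and for the same reason leaving out each replicate was not run. Depth per library is unknown, so precision rests on the authors' standard errors.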

Other observations

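Further relatives of the family were near or below the level at which genes were tested. Igfals, the acid-labile subunit that carries IGFs with Igfbp3 in blood, had a mean normalized count of 27.6, Igfbpl1 one of 1.92 and Ins2 one of 1.04 in the authors' deposited table. These 3 genes have no adjusted p there, since the lowest mean count with one was 42.1. The antisense transcript Igf1os, which overlaps Igf1 by 5117 bases, had a mean normalized count of 9.68 in the authors' deposited table, 0.0453% of that of Igf1.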
